A study of Mus musculus with 12 samples.

Results

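Small nucleolar RNAs (snoRNAs) and small Cajal body RNAs (scaRNAs) were measured with Affymetrix Mouse Gene ST 1.0 arrays in CD4+ T cells carrying mutant or wild-type (WT) Foxp3, the transcription factor that defines regulatory T cells (Tregs). The 36 genes described are those with a symbol beginning Snora, Snord or Scarna whose probe set named 1 gene and exceeded the median of all probe sets on 2 or more of the 12 arrays. They were 36 of 39 such genes with a probe set naming 1 gene, among 16426 named genes on the array and 8918 that passed the same filter and were tested. By symbol, 16 were box C/D snoRNAs (Snord), 17 were box H/ACA snoRNAs (Snora) and 3 were scaRNAs.

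The 6 groups had 2 arrays each, and the labels describe all 12 samples as splenic cells of male C57Bl/6 mice aged 6 weeks. Tregs (CD4+, TCRb+, CD25+) came from mice of the genotypes Foxp3(M176/M176), Foxp3(M354/M354) and Foxp3(WT/WT). The transduced cells were conventional T cells (Tcons) of the WT genotype that had received M176, M354 or WT Foxp3 from a retrovirus and were sorted as CD4+, TCRb+ and THY1.1+. Both kinds of cell were sorted in 2 rounds, without dead cells (DAPI-), as CD25high Tregs or Thy1.1high transduced cells, from mice the design text calls treated without naming a treatment. All groups carried a form of Foxp3, and cells transduced without Foxp3 are not analysed here. The sources used here do not give the amino acid changes behind M176 and M354. Whether 2 arrays of a group came from different animals or cultures is not in the labels, so a p-value here measures the spread between such arrays only, and that spread may be technical. Neither a batch nor a scan time is given.

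SnoRNAs are short, stable nuclear RNAs that work inside protein particles in the nucleolus. Box C/D snoRNAs pair with ribosomal RNA (rRNA) and direct methylation of riboses by fibrillarin, and box H/ACA snoRNAs direct the change of uridine into pseudouridine by dyskerin. A few of both kinds are needed for cutting the rRNA precursor rather than for modifying it. scaRNAs do the same modifying work on the RNAs of the spliceosome, in Cajal bodies. In mammals most are cut out of the introns of a host gene, so that a snoRNA and the spliced RNA of its host begin as 1 transcript and then have separate fates. Many hosts encode ribosomal proteins or are non-coding genes whose spliced RNA is unstable, and their promoters often hold a run of pyrimidines at the start of transcription.

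The 36 genes lay inside 32 host genes in the RefSeq gene table, 15 of them in genes for ribosomal proteins, 10 in non-coding genes and 11 in other coding genes. Start regions of hosts, 30 bases on either side of the annotated start on the sense strand, are shown because a host's promoter makes the transcript that the snoRNA is cut from. The first 8 belong to hosts of snoRNAs that were higher in M176 Tregs, and the last 2 to hosts of snoRNAs that were not called. Capitals mark the longest run of C or T that reaches within 20 bases of the start. The sequences are from RefSeq on GRCm38.p6.
Snhg1: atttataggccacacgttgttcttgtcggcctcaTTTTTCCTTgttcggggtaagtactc
Snhg12: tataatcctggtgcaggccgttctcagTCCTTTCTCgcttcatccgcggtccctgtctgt
Snhg3: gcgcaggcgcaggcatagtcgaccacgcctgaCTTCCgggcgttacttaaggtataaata
Rps3: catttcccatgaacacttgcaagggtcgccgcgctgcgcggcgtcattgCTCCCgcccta
Rpl13a: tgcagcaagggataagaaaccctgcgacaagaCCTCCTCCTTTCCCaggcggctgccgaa
Rpl27a: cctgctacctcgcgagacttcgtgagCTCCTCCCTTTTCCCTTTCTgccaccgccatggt
Rpl39: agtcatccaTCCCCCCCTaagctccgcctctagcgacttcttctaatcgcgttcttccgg
Rbmx: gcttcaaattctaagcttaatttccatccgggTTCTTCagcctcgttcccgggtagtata
Ipo7: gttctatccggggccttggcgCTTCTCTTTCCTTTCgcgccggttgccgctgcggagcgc
Wdr43: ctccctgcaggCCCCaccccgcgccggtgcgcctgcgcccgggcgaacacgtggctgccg

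Snhg1, the host of Snord22, starts within chr19:8723457-8723516 on the plus strand, and Snhg12, the host of Snora16a and Snora44, within chr4:132308648-132308707 on the plus strand. Snhg3, which holds Snora73a and Snora73b, starts within chr4:132353657-132353716 on the minus strand. Rps3 (Snord15a and Snord15b, chr7:99483680-99483739), Rpl13a (Snord33 and Snord35a, chr7:45128716-45128775), Rpl39 (Snora69, chrX:37085193-37085252) and Rbmx (Snord61, chrX:57393007-57393066) are on the minus strand. Rpl27a (Snora3, chr7:109519165-109519224), Ipo7 (Snora23, chr7:110018285-110018344) and Wdr43 (Snord53, chr17:71616185-71616244) are on the plus strand. Of the 32 hosts, 24 had an entry in the promoter table. A run of at least 8 bases of C or T near the start was present in 9 of these 24 hosts (37.5%), and in 21% of all 32851 promoter entries. A start at C followed by 4 bases of C or T was annotated for 3 hosts, Ipo7, Rplp2 and 1110038B12Rik (12.5%), and for 2.51% of all entries. This second pattern overlaps the first, and both were read on the sense strand only. Rpl27a had a run of 20 bases and holds a called snoRNA, and Ipo7 had a run of 15 bases and holds one that was not called, so both kinds of host can have such a run.

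The arrays were alike in overall level, with medians of 101.5 to 117.4 on the linear intensity scale deposited, and the 2 arrays of each group correlated at 0.993 to 0.995 over all genes on the log2 scale. Foxp3 measured 3442 and 3321 in M176 Tregs, 5991 and 5485 in M354 Tregs and 5913 and 5327 in WT Tregs, and it was lower in M176 Tregs (log2 -0.73, SE 0.12, adjusted p = 0.000552 against WT). In transduced cells it measured 5663 and 5233 with M176, 5339.6 and 5821 with M354 and 5945 and 6163 with WT Foxp3. The summed intensity of 8 B cell markers was 1612 and 1518 in M176 Tregs, 1968 and 1924 in M354 Tregs and 1650.5 and 3512 in WT Tregs, with WT replicate 2 apart, and 3132 to 3393 in the 6 transduced arrays. No B cell marker was at 0, the lowest value being 36.2. The 36 small RNAs did not set WT replicate 2 apart, since their median difference between the WT Treg arrays was -0.04 on the log2 scale. The sum of 7 CD8+ T and NK cell markers was 1906 and 1576 in M176 Tregs, 3206 and 2748 in M354 Tregs and 1995 and 1812 in WT Tregs, against 4053 to 4987 in the 6 transduced arrays, and the lowest single value was 14.8. The higher sum in M354 Tregs followed Nkg7, at 903.5 and 764 in M176, 2466 and 2031 in M354 and 1183.5 and 1039 in WT Tregs. Cd8b1 went the other way, at 693 and 547 in M176, 455 and 467 in M354 and 511 and 482 in WT Tregs. Sums of 5 T cell markers were 21858 and 20414 in M176 Tregs, 23104 and 25282 in M354 Tregs and 24394 and 23791 in WT Tregs. Within that list, M176 against WT Tregs had Cd3d higher (log2 1.16, limma adjusted p = 0.000596) and Cd3e lower (log2 -0.48, limma adjusted p = 0.00964). Cd3g, Cd4 and Cd5 were not called.

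The 6 transduced arrays stood apart from each other in their small RNAs, which touches every comparison that uses them. In each transduced group 1 array was high and the other low. M176-transduced replicate 2 exceeded replicate 1 for 27 of the 36 small RNAs, 9 of them by at least 2-fold. M354-transduced replicate 1 exceeded replicate 2 for 34, 18 of them by at least 2-fold, and WT-transduced replicate 2 exceeded replicate 1 for 31, 7 of them by at least 2-fold. Over all genes tested, 0.247% differed by 2-fold or more in the M176-transduced pair, 0.392% in the M354-transduced pair and 0.258% in the WT-transduced pair. In the Treg pairs only Scarna13 differed by that much, and it did so in each of the 3 pairs. The median small RNA differed between the arrays of a pair by -0.64 (replicate 1 minus replicate 2, log2) in M176-transduced, 0.91 in M354-transduced and -0.57 in WT-transduced cells, and by -0.04, -0.10 and -0.04 in M176, M354 and WT Tregs.

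**Figure D1:**
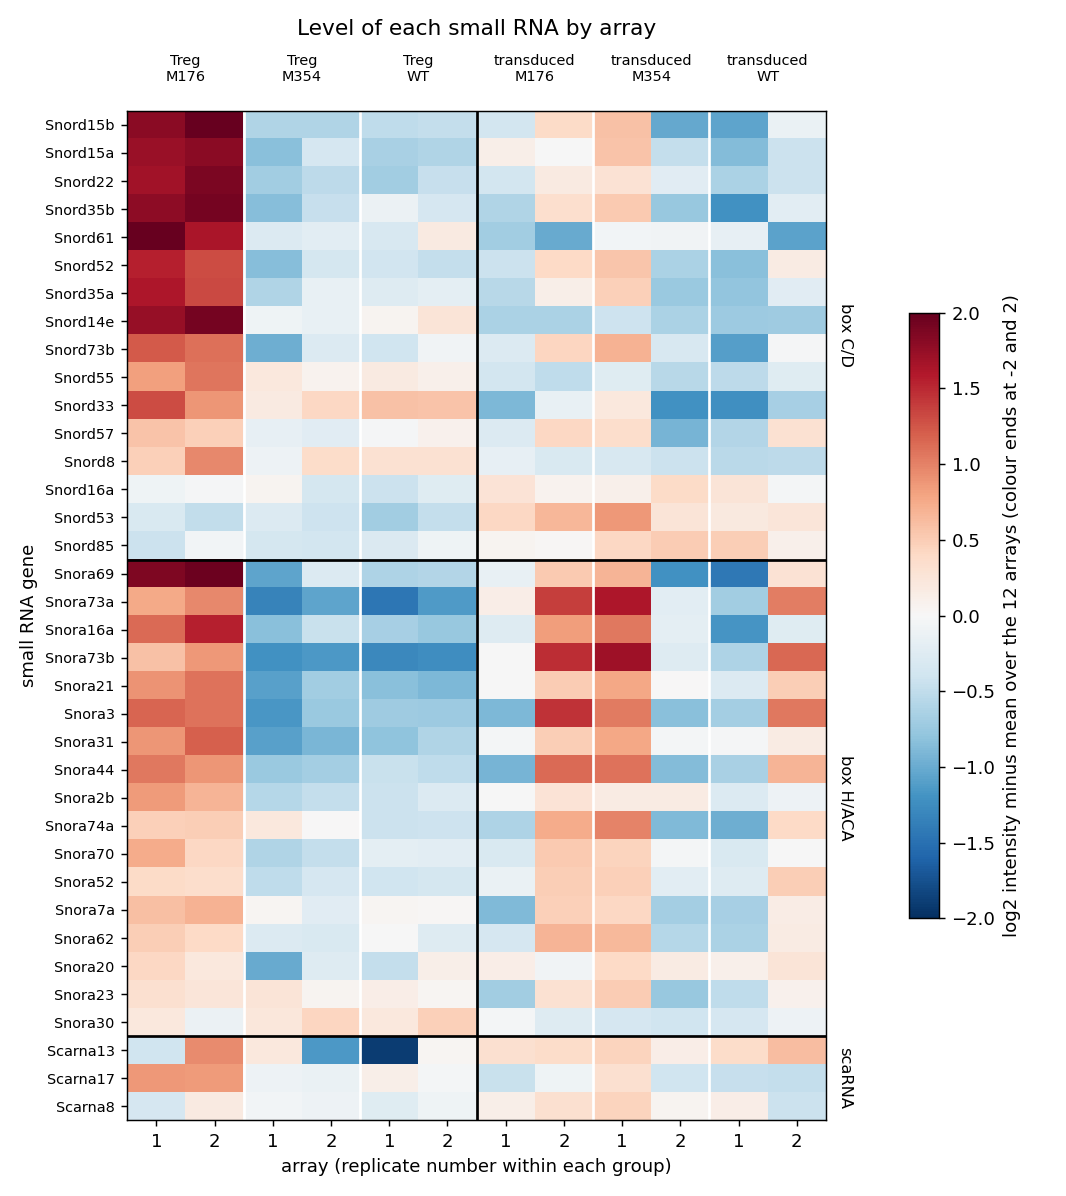
Heat map of the 36 small RNAs (rows, by class and by their M176 minus WT difference in Tregs) on the 12 arrays (columns), coloured by log2 intensity minus the RNA's mean over the 12 arrays. Both M176 Treg columns are red for most rows, and in each transduced group 1 column is redder than the other (34 of 36 RNAs were higher on M354-transduced replicate 1).

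Signal was higher in M176 Tregs than in WT Tregs for most of the small RNAs. Of the 36, 21 were called higher, 0 lower and 15 neither, where a call is limma's p below 0.05 after Benjamini-Hochberg adjustment over all 8918 genes. The background share called higher in this comparison was 13.4% of all genes tested. The calls were 10 of 16 box C/D snoRNAs with a median log2 difference of 1.53, 10 of 17 box H/ACA snoRNAs with a median of 1.11, and 1 of 3 scaRNAs. The median over all genes tested was -0.04. Snora2b and Snord61 passed the filter through the M176 Treg arrays alone and so had to differ. Without them 19 of 34 were called, with a median of 1.05. Snora2b is counted in the box H/ACA calls above and its own difference is that median, and Snord61 is counted in the box C/D calls. The counts and medians by class were not redone without them. Both M176 Treg arrays lay above all 4 other Treg arrays for 29 of the 36, and for 27 of 34 without Snora2b and Snord61, against 26.4% of all genes tested. In RNA from whole samples, fewer cells of a type and less RNA per cell cannot be told apart.

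Among box C/D snoRNAs, Snord22 encodes U22, an RNA needed for maturation of the small-subunit rRNA in frog oocytes. It measured 519 and 595 in M176 Tregs, 99.1 and 112 in M354 Tregs and 99.6 and 117 in WT Tregs (log2 2.36, SE 0.19, adjusted p = 5.52e-07). The 2 M176 Treg arrays lay far above the other 4 Treg arrays, which spanned 99.1 to 117. Snord14e belongs to the U14 family, whose yeast counterpart is essential for making small-subunit rRNA, and it measured 1484 and 1659.6 in M176 Tregs, 417 and 400.0 in M354 Tregs and 462 and 527 in WT Tregs (log2 1.67, SE 0.13, adjusted p = 5.52e-07). This was the smallest SE among the 36 in that comparison. Both kept their calls under each of the 21 other settings and left-out arrays in which they were fitted.

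Snord15a and Snord15b, the U15 guides for methylation of large-subunit rRNA, lie in introns of Rps3. Snord15a measured 493 and 516 in M176 Tregs, 83.2 and 118 in M354 Tregs and 94.5 and 97.6 in WT Tregs (log2 2.39, SE 0.24, adjusted p = 6e-06). Snord15b measured 2218 and 2588 in M176 Tregs, 419.8 and 418 in M354 Tregs and 449 and 456 in WT Tregs (log2 2.40, SE 0.36, adjusted p = 0.000198). Both were 5-fold higher in M176 Tregs, by 5.25-fold and 5.3-fold as fitted, and neither overlapped between M176 and the other Tregs. Snord35a and Snord33 lie in Rpl13a, whose intronic snoRNAs were required for the response to lipid-induced stress in rodent cells. Snord35a measured 4649 and 3814 in M176 Tregs, 1000.3 and 1369.8 in M354 Tregs and 1273 and 1331 in WT Tregs (log2 1.69, SE 0.30, adjusted p = 0.000674). Snord33 measured 2096 and 1565 in M176 Tregs, 959 and 1128 in M354 Tregs and 1272 and 1251 in WT Tregs (log2 0.52, SE 0.33, adjusted p = 0.259), and although the arrays of M176 and WT Tregs did not overlap the difference did not pass. Snord35b measured 2667 and 2915 in M176 Tregs, 426 and 560.4 in M354 Tregs and 713 and 613 in WT Tregs (log2 2.08, SE 0.35, adjusted p = 0.000497).

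Snord52 and Snord61 were dim. Snord61, the dimmest of the 36 and hosted by the X-linked gene Rbmx, measured 155 and 117 in M176 Tregs, 31.3 and 32.7 in M354 Tregs and 30.1 and 42.8 in WT Tregs (log2 1.91, SE 0.23, adjusted p = 2.49e-05). Snord52 measured 232 and 195 in M176 Tregs, 43.5 and 61.6 in M354 Tregs and 60.8 and 56.6 in WT Tregs (log2 1.86, SE 0.34, adjusted p = 0.000852). In both the M176 arrays stood above the other 4 Treg arrays. For Snord61 this followed from the filter, which it passed through the M176 Treg arrays alone. Snord55 measured 817 and 972 in M176 Tregs, 538 and 487 in M354 Tregs and 524 and 496 in WT Tregs (log2 0.81, SE 0.15, adjusted p = 0.000892). Snord73b, from Rps3a1, measured 3617 and 3309.6 in M176 Tregs, 786 and 1272 in M354 Tregs and 1167 and 1471 in WT Tregs (log2 1.40, SE 0.33, adjusted p = 0.00573). Its M354 arrays were the most spread of the Treg pairs, and it lost its call in 2 of 21 settings (adjusted p up to 0.0975).

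The other box C/D snoRNAs were not called against WT. Snord8, which guides methylation of the U6 spliceosomal RNA, measured 549 and 765 in M176 Tregs, 368 and 507 in M354 Tregs and 487 and 487 in WT Tregs (log2 0.41, SE 0.17, adjusted p = 0.0797). Snord57 measured 11233 and 10546 in M176 Tregs, 6724 and 6472 in M354 Tregs and 7480.0 and 8065 in WT Tregs (log2 0.49, SE 0.32, adjusted p = 0.28). In both the 2 M176 arrays were above all other Treg arrays. Snord16a measured 878 and 916 in M176 Tregs, 969.6 and 729 in M354 Tregs and 691 and 786 in WT Tregs (log2 0.28, SE 0.16, adjusted p = 0.21), Snord53 measured 568 and 496 in M176 Tregs, 581 and 526 in M354 Tregs and 434 and 501 in WT Tregs (log2 0.19, SE 0.17, adjusted p = 0.449), and Snord85 measured 124 and 160.0 in M176 Tregs, 130.2 and 129.8 in M354 Tregs and 136 and 158 in WT Tregs (log2 -0.06, SE 0.15, adjusted p = 0.81). The M176 arrays of these last 3 overlapped with those of M354 Tregs.

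Among box H/ACA snoRNAs, Snora73a and Snora73b encode the U17 snoRNAs, which act in cutting the rRNA precursor, and both come from introns of the non-coding gene Snhg3. Snora73a measured 3007 and 3494 in M176 Tregs, 710.5 and 857 in M354 Tregs and 654 and 819 in WT Tregs (log2 2.15, SE 0.50, adjusted p = 0.00524). Snora73b measured 2753 and 3371 in M176 Tregs, 796 and 825 in M354 Tregs and 749.6 and 774 in WT Tregs (log2 2.0, SE 0.54, adjusted p = 0.0119). The M176 arrays were at least 3-fold above the other Treg arrays in both. Snora73b lost its call without either M176 Treg array, and both lost it with a trend and robust prior (adjusted p = 0.105 for Snora73a and 0.147 for Snora73b). Snora16a and Snora44 share the host Snhg12. Snora16a measured 1417 and 1887 in M176 Tregs, 362 and 474 in M354 Tregs and 406 and 380.1 in WT Tregs (log2 2.06, SE 0.36, adjusted p = 0.000659). Snora44 measured 2887 and 2557 in M176 Tregs, 828 and 871 in M354 Tregs and 1021 and 975 in WT Tregs, without overlap between M176 and WT, yet its difference did not pass (log2 1.45, SE 0.55, adjusted p = 0.0656).

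Snora69, a pseudouridylation guide from an intron of the X-linked gene Rpl39, had the largest fitted change of the 36. It measured 1963 and 2098 in M176 Tregs, 258 and 443 in M354 Tregs and 348 and 358 in WT Tregs (log2 2.52, SE 0.49, adjusted p = 0.00135), and the call was lost with the trend and robust prior (adjusted p = 0.0622). Snora21, from Rpl23, measured 393 and 446 in M176 Tregs, 98.5 and 130.3 in M354 Tregs and 118 and 112 in WT Tregs (log2 1.87, SE 0.25, adjusted p = 6.65e-05). Snora31, from Tpt1, measured 549.6 and 683 in M176 Tregs, 141 and 159 in M354 Tregs and 172 and 198 in WT Tregs (log2 1.73, SE 0.22, adjusted p = 3.85e-05). All 3 were higher on both M176 arrays than on any other Treg array. Snora3, from Rpl27a, measured 4731 and 4481 in M176 Tregs, 938 and 1255 in M354 Tregs and 1283 and 1268 in WT Tregs (log2 1.85, SE 0.61, adjusted p = 0.0357). Its SE was the largest of the 36 although its Treg pairs were tight. The fit pools the spread of all 6 groups, and the transduced pairs of Snora3 were wide apart. It lost its call in 9 of 21 other settings.

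Snora2b, from Kansl2, measured 151 and 134 in M176 Tregs, 56.7 and 60.3 in M354 Tregs and 62.5 and 69.3 in WT Tregs (log2 1.11, SE 0.14, adjusted p = 2.96e-05). Like Snord61, Snora2b passed the filter through the M176 Treg arrays alone and so had to differ. Snora70, from Rpl10, measured 344 and 275 in M176 Tregs, 136 and 148 in M354 Tregs and 179 and 179 in WT Tregs (log2 0.78, SE 0.22, adjusted p = 0.0144). Snora52, from Rplp2, was the brightest of the 36 and measured 11443 and 11199.8 in M176 Tregs, 6196 and 6967 in M354 Tregs and 6661 and 6856 in WT Tregs (log2 0.74, SE 0.24, adjusted p = 0.0312). Of these, Snora70 lost its call without M176 replicate 1 or either WT Treg array, and Snora52 lost its call in 7 of 21 settings. Snora20, from Tcp1, measured 144 and 126 in M176 Tregs, 54.3 and 90.6 in M354 Tregs and 78.2 and 118 in WT Tregs (log2 0.49, SE 0.21, adjusted p = 0.101). Without WT Treg replicate 2 Snora20 was called at 0.787 (adjusted p = 0.0257), and without replicate 1 it was 0.19. Snora30, from Srcap, measured 251 and 199 in M176 Tregs, 254 and 291 in M354 Tregs and 251 and 299 in WT Tregs (log2 -0.29, SE 0.15, adjusted p = 0.169). Snora30 had the lowest fitted difference of the 36, and its M176 arrays were not apart from the others. Snora7a, Snora62, Snora74a and Snora23 differed by 0.61, 0.59, 0.91 and 0.20 with adjusted p of 0.218, 0.208, 0.177 and 0.678.

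Of the scaRNAs, Scarna17 was called, with 2096 and 2063 in M176 Tregs, 1065 and 1048 in M354 Tregs and 1247 and 1124 in WT Tregs (log2 0.81, SE 0.18, adjusted p = 0.00408). Scarna8 measured 144 and 206 in M176 Tregs, 175 and 170.3 in M354 Tregs and 154 and 172 in WT Tregs (log2 0.08, SE 0.19, adjusted p = 0.79), and its M176 arrays overlapped with both other groups. Scarna13 measured 1896 and 4791 in M176 Tregs, 2894 and 1133 in M354 Tregs and 673 and 2573 in WT Tregs (log2 1.20, SE 0.49, adjusted p = 0.082). It was the most erratic of the 36 in Tregs, differing between the arrays of every Treg pair by more than 2-fold while its transduced pairs were close. Its difference ranged from 0.228 to 2.162 with an array left out, and it passed at an adjusted p of 0.00234 when WT Treg replicate 2 was dropped and of 0.0364 when the first M176 Treg array was.

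**Figure D2:**
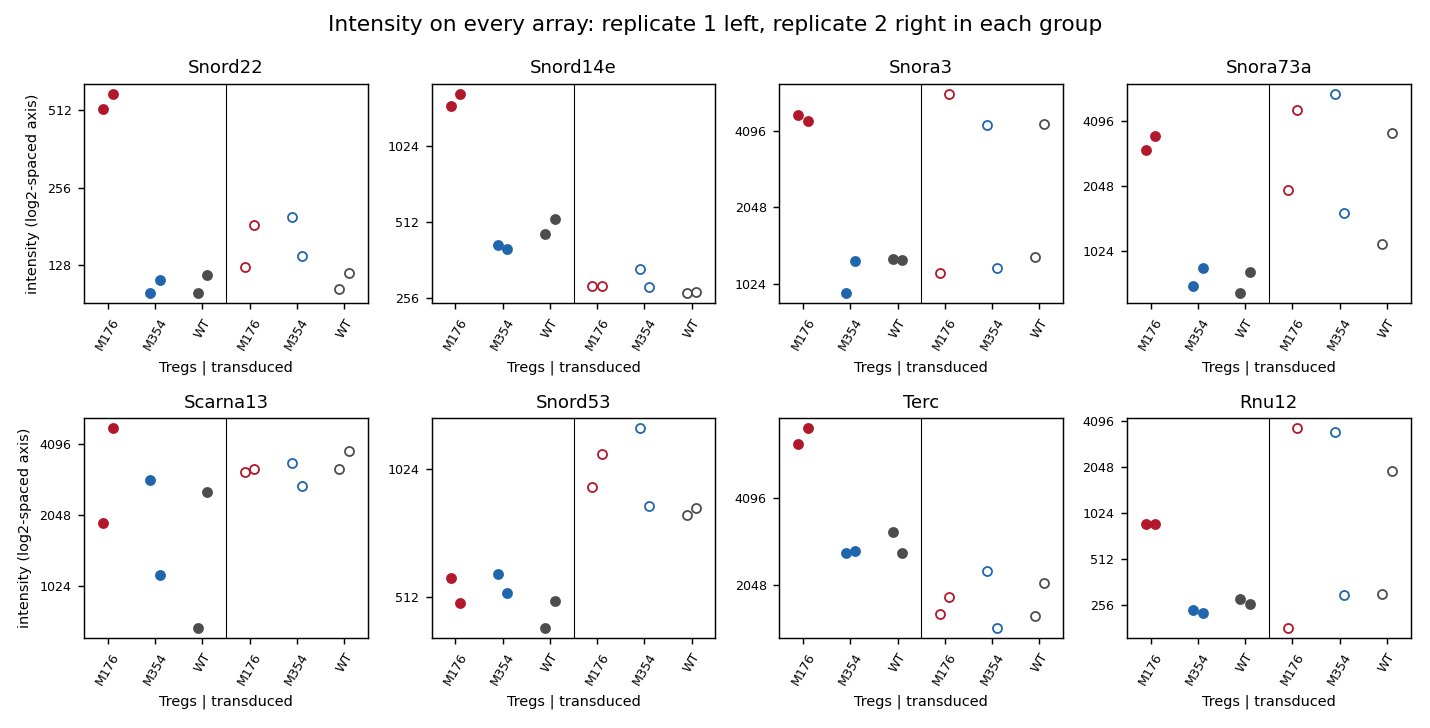
Linear intensity of 6 small RNAs (Snord22, Snord14e, Snora3, Snora73a, Scarna13 and Snord53) and of Terc and Rnu12 on every array, on a log2-spaced axis with filled points for Tregs and open points for transduced T cells. Snord14e is high on the M176 Treg arrays alone, while Snora3 and Rnu12 are also high on 1 array of each transduced group.

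No small RNA was called in M354 Tregs. Against WT Tregs, 0 of the 36 were called in either direction by limma, 1 had an unadjusted p below 0.05, and the median difference was -0.14, against 1.81% of all genes called either way. Set directly against M354 Tregs, M176 Tregs were higher for 24 of the 36 and lower for 0, against a background of 18.1% called higher, with a median of 1.20. Without Snora2b and Snord61 this was 22 of 34. The additional RNAs were Snora44 (log2 1.68, SE 0.55, adjusted p = 0.0295), Snora20 (log2 0.94, SE 0.21, adjusted p = 0.00302) and Snord8 (log2 0.59, SE 0.17, adjusted p = 0.0137), each above both M354 arrays on both M176 arrays. Snora44 lost this call in 7 of 21 settings (adjusted p up to 0.208), Snord8 in 2 of 21 (up to 0.215) and Snora20 in 1 of 20 (0.0885). Snord35b differed by 2.51 (adjusted p = 6.5e-05) and Snord14e by 1.94 (adjusted p = 3.27e-08). Both comparisons use the same M176 arrays.

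In transduced T cells no small RNA was called for either mutant. M176-transduced against WT-transduced cells gave 0 calls among the 36 by limma, 4 unadjusted p below 0.05 and a median difference of 0.27, with 0.516% of all genes called either way. M354-transduced against WT-transduced cells gave 0 calls, 7 unadjusted p below 0.05 and a median of 0.30, with 1.33% of all genes called. Between M176-transduced and M354-transduced cells there were 0 calls, 2 unadjusted p below 0.05 and a median of -0.03, with 0.0785% of all genes called. Both M176-transduced arrays lay above both WT-transduced arrays for 7 of the 36, against 13.4% of all genes tested, and both M354-transduced arrays for 8, against 20.2%. Without M354-transduced replicate 2, 4 were called higher in M354-transduced cells. These comparisons share the WT-transduced arrays.

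The box H/ACA snoRNAs spread most within the transduced pairs. Snora3 measured 1129 and 5738 with M176, 4326 and 1182 with M354 and 1309 and 4363 with WT Foxp3. Snora73a measured 1960.0 and 4640.2 with M176, 5497 and 1542 with M354 and 1106 and 3626 with WT Foxp3, and Snora73b 1838 and 5134 with M176, 5941 and 1533 with M354 and 1199 and 4097 with WT Foxp3. In each of these the high array of every pair exceeded the low array by more than 2-fold, and the highest transduced array exceeded both M176 Treg arrays. Snora44 measured 732 and 3053 with M176, 2937 and 759.6 with M354 and 882 and 2221 with WT Foxp3. Snora16a measured 541 and 1149.6 with M176, 1333 and 562 with M354 and 285 and 546 with WT Foxp3, and Snora69 485 and 767 with M176, 860.3 and 231 with M354 and 199 and 654 with WT Foxp3. The high arrays were again M176 replicate 2, M354 replicate 1 and WT replicate 2. Snora21 measured 209.9 and 299 with M176, 360.3 and 212 with M354 and 174 and 295 with WT Foxp3, Snora31 289 and 421 with M176, 508 and 289 with M354 and 294 and 334 with WT Foxp3 and Snora2b 83.5 and 102 with M176, 94.5 and 94.3 with M354 and 69.5 and 78.7 with WT Foxp3. Snora52 measured 8050.4 and 12390.1 with M176, 12266 and 7579.8 with M354 and 7328 and 12368 with WT Foxp3. The pairs of Snora31 and Snora2b differed by less than 2-fold. Snora70 measured 166 and 296 with M176, 281 and 200.5 with M354 and 167 and 204 with WT Foxp3, Snora20 119.5 and 104 with M176, 143 and 122 with M354 and 117 and 129.6 with WT Foxp3 and Snora30 211 and 182 with M176, 171 and 164 with M354 and 172 and 201 with WT Foxp3.

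Among box C/D snoRNAs the pairs differed less uniformly. Snord14e measured 286 and 285 with M176, 333 and 284 with M354 and 267 and 271 with WT Foxp3, and Snord55 362 and 328 with M176, 391 and 317 with M354 and 324 and 392 with WT Foxp3. Neither differed by 2-fold within a pair. Snord61 measured 23.3 and 18.8 with M176, 36.5 and 36.1 with M354 and 33.6 and 17.9 with WT Foxp3. Snord22 measured 126 and 183 with M176, 197 and 138 with M354 and 104 and 119.5 with WT Foxp3, Snord15a 160.2 and 148 with M176, 219.5 and 106 with M354 and 81.1 and 109.9 with WT Foxp3 and Snord15b 491 and 827 with M176, 951 and 315 with M354 and 307 and 578 with WT Foxp3. The M354 replicate 1 array was the highest of the 6 for these 3. Snord35a measured 1037 and 1646 with M176, 2119 and 911 with M354 and 883 and 1304 with WT Foxp3, Snord35b 508 and 974 with M176, 1104 and 457 with M354 and 334 and 666 with WT Foxp3 and Snord33 453 and 761.8 with M176, 985 and 368 with M354 and 361 and 535 with WT Foxp3. Snord52 measured 58.6 and 104 with M176, 115 and 50.8 with M354 and 44.1 and 88.1 with WT Foxp3, and Snord73b 1271 and 2069 with M176, 2496 and 1239 with M354 and 722 and 1518 with WT Foxp3. The high arrays of these 5 were again M176 replicate 2, M354 replicate 1 and WT replicate 2. Snord8 measured 352 and 318 with M176, 316 and 293 with M354 and 271 and 274 with WT Foxp3, Snord16a 1124 and 976 with M176, 999 and 1210.5 with M354 and 1112 and 902 with WT Foxp3 and Snord85 173 and 169 with M176, 223 and 236 with M354 and 236 and 178 with WT Foxp3. Snord53 measured 928 and 1114 with M176, 1276 and 839.9 with M354 and 800.1 and 828 with WT Foxp3. Among scaRNAs, Scarna17 measured 842 and 1078 with M176, 1436 and 871 with M354 and 831 and 826 with WT Foxp3, Scarna8 198 and 228 with M176, 247 and 189 with M354 and 199.9 and 135 with WT Foxp3 and Scarna13 3134 and 3226 with M176, 3396 and 2731 with M354 and 3213 and 3846 with WT Foxp3. None of these 3 differed by 2-fold within a transduced pair.

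**Figure D3:**
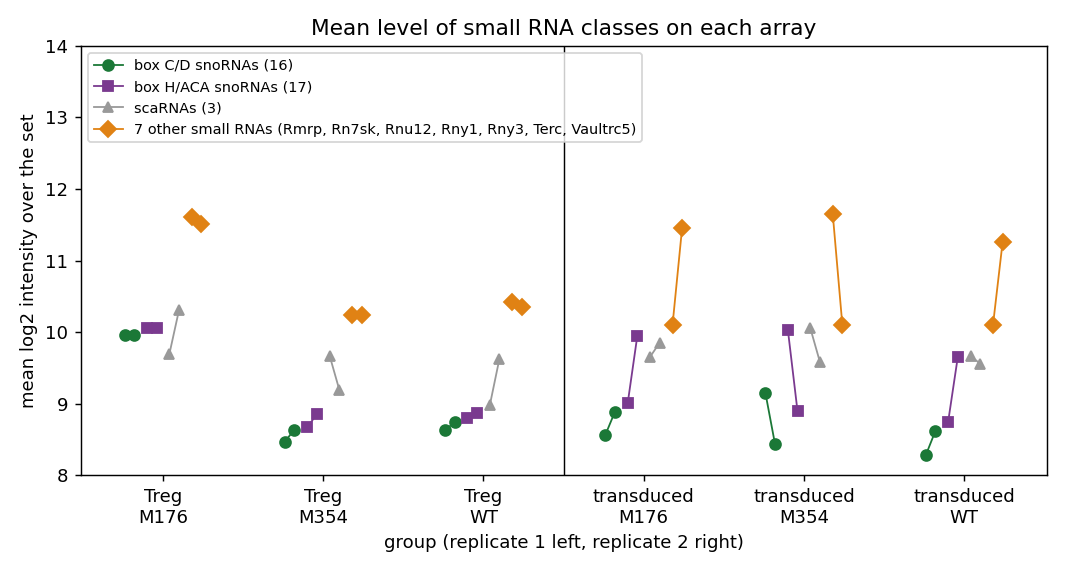
Mean log2 intensity on each array (vertical axis) of the box C/D snoRNAs, box H/ACA snoRNAs, scaRNAs and 7 other small RNAs, by group, with replicate 1 left and replicate 2 right. H/ACA snoRNAs average 10.05 and 10.06 in M176 Tregs, and the transduced pairs split, as in 10.03 and 8.896 with M354.

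The mean log2 level of the 17 box H/ACA snoRNAs was 9.002 and 9.94 with M176, 10.03 and 8.896 with M354 and 8.74 and 9.65 with WT Foxp3 in transduced cells (replicate 1 and 2). For the 16 box C/D snoRNAs it was 8.56 and 8.88 with M176, 9.15 and 8.43 with M354 and 8.28 and 8.61 with WT. The same arrays were high for 7 other small RNAs, whose mean was 10.099 and 11.46 with M176, 11.65 and 10.098 with M354 and 10.098 and 11.26 with WT. Rnu12, an RNA of the minor spliceosome, measured 180.0 and 3668 with M176, 3448 and 295 with M354 and 303 and 1914 with WT Foxp3. In Tregs Rnu12 measured 873 and 870.5 in M176 Tregs, 238 and 228 in M354 Tregs and 279 and 258 in WT Tregs. The 71 microRNA genes tested did not show the split, with means of 7.403 and 7.34 with M176, 7.34 and 7.28 with M354 and 7.29 and 7.41 with WT. Histone genes moved with it in part, with means of 9.32 and 9.63 with M176, 10.11 and 9.49 with M354 and 9.32 and 9.599 with WT. The list of stress and handling genes lay between 8.69 and 8.92 on the 6 transduced arrays, and it was not higher on the arrays where small RNAs were high. The part of any technical difference between the arrays of a pair in these values was not tested.

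The M176 difference was larger in Tregs than in transduced cells for 9 of the 36, and smaller for 0, by a test of the difference between both differences, against a background of 4.03% of all genes called in that direction. The median of this difference was 0.82. Without Snora2b and Snord61, 7 of 34 were called. Snord22 had log2 1.92, SE 0.26, adjusted p = 0.000521, and Snord14e log2 1.58, SE 0.18, adjusted p = 0.000123. Both kept the call in all 20 other settings and left-out arrays in which they were fitted. Snora21 (1.72, adjusted p = 0.00852), Snord15a (1.69, adjusted p = 0.00852), Snora31 (1.58, adjusted p = 0.00715), and Snord55 (0.86, adjusted p = 0.0236) were also called. Snord15b, at 1.81 (adjusted p = 0.0486), lost its call in 13 of 20 settings, Snord55 in 7, Snora21 in 2, and Snora31 and Snord15a in 1 each. Snord61 (2.15, adjusted p = 0.00122) and Snora2b (0.79 (adjusted p = 0.0237), lost in 4 of 19) were called too, but passed the filter only through the M176 Treg arrays. The count fell to 4 without M176-transduced replicate 1 and to 6 without WT-transduced replicate 2, and was 15 without WT-transduced replicate 1. For M354 the same test gave 0 calls among the 36, 7 unadjusted p below 0.05 and a median of -0.40, with 1.08% of all genes called either way. Snora69, Snora73a and Snora3 had differences of 1.76, 1.56 and 1.76 with SE of 0.69, 0.71 and 0.87 and did not pass.

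Over all 12 arrays, both M176 Treg arrays lay above the 10 others for 20 of the 36, and for 18 of 34 without Snora2b and Snord61, against 11.2% of all genes tested. Snora3, Snora44, Snora73a and Snora73b were not among them, since 1 or more transduced arrays reached as high.

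**Figure D4:**
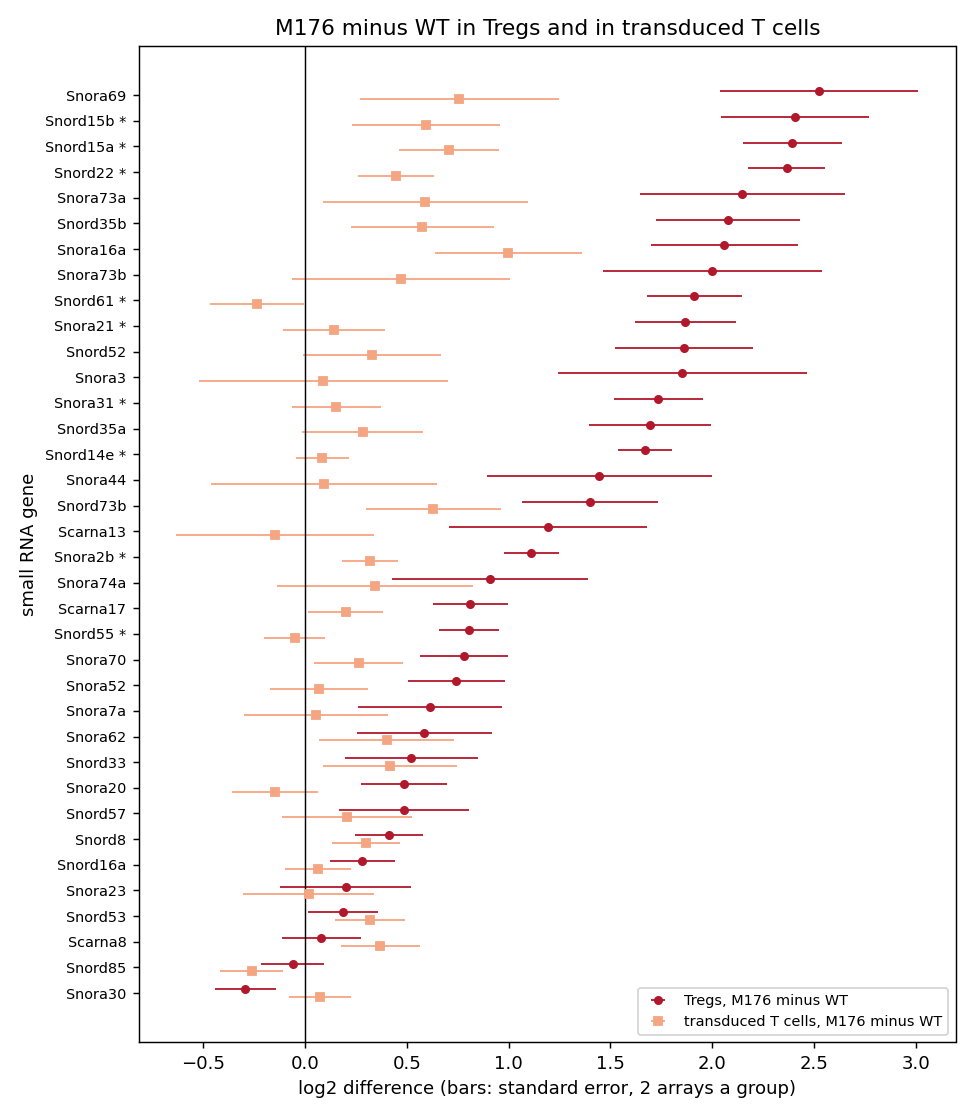
M176 minus WT differences (log2, horizontal axis, bars are standard errors) of the 36 small RNAs in Tregs (dark circles) and in transduced T cells (light squares), ordered by the difference in Tregs. An asterisk marks the 9 whose differences were called different between both kinds of cell, among them Snord22 at 2.36 in Tregs and 0.45 in transduced cells and Snord55 at 0.81 and -0.05.

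The WT comparison set WT Tregs against WT-transduced cells, and calls were made in both directions. Of the 36, 6 were called higher in WT Tregs, against 10.9% of all genes, and 8 lower, against 19.4%, and both shares are near the background. Higher were Snord33 (log2 1.52, SE 0.33, adjusted p = 0.00213), Snord14e (log2 0.87, SE 0.13, adjusted p = 7.92e-05), Snord8 (log2 0.84, SE 0.17, adjusted p = 0.00115), Snora30 (0.56), Snord55 (0.52) and Scarna17 (0.52). Lower were Snord53 (log2 -0.81, SE 0.17, adjusted p = 0.00203), Snora21 (log2 -0.98, SE 0.25, adjusted p = 0.00687), Snora31 (-0.77), Snord85 (-0.48), Snord16a (-0.44), Scarna13 (-1.42), Snora73a (-1.45) and Snora73b (-1.54). Snord14e, Snord8 and Snord53 kept these calls in all 20 settings, while Scarna17 lost its call in 9 of 20, Snora30 and Snord85 in 2 of 19, Snord55 in 2 of 20, and Snora21 and Snord33 in 1 of 20. Those of Snora73a, Snora73b, Scarna13, Snora31 and Snord16a were lost with quantile normalization, and within WT groups the first 3 had a pair more than 2-fold apart. Counting that setting, Snord16a lost its call in 12 of 20, Snora73a and Snora73b in 8 each, Scarna13 in 7 and Snora31 in 3. Quantile normalization left 9 calls and moved the median of all genes by 0.11, and the calls over all genes were 1302 higher and 1307 lower, against 968 and 1728 as deposited.

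For most small RNAs with a measured host, the fitted difference was larger than that of the host. Of the 36, 19 lay in a host with a tested probe set, 18 hosts in all. In M176 against WT Tregs the small RNA's log2 difference exceeded its host's in 16 of 19, and the medians were 0.78 for the small RNAs and 0.25 for the hosts. Without Snora2b and Snord61 this was 14 of 17, with medians of 0.74 and 0.28. Of the 18 hosts 7 were called higher, against 13.4% of all genes tested, and 4 with quantile normalization, where their median was 0.11. Both were called higher in 5 cases, the small RNA alone in 6, the host alone in 3, neither in 4, and in 1 the host was lower. The difference between the 2 fits was not tested for single pairs. Whether a probe set read the processed small RNA or the same sequence in unspliced host RNA was not tested, here or for microRNA genes.

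Snord14e lies in Hspa8, the constitutive heat shock chaperone gene, whose probe set measured 7563 and 7450.3 in M176 Tregs, 7294 and 7646 in M354 Tregs and 7714 and 7939 in WT Tregs. The host differed by -0.06 (adjusted p = 0.759) and the snoRNA by 1.67. Rbmx, an RNA-binding protein gene, differed by 0.24 (adjusted p = 0.258) while Snord61 differed by 1.91. Tpt1, which encodes a translation-controlled protein, differed by 0.25 (adjusted p = 0.155) and Snora31 by 1.73. In Hspa8 and Tpt1 the host was not called while its snoRNA was more than 3-fold higher, and the limit of the filter given above applies to Snord61 and, in Kansl2, to Snora2b. Kansl2 (0.17, adjusted p = 0.386), Rpl10 (0.25, adjusted p = 0.203) and Rplp2 (-0.12, adjusted p = 0.54) likewise held called snoRNAs without a call of their own. The Rplp2 probe set measured 186.5 and 217.7 in M176 Tregs and 219.6 and 219.0 in WT Tregs, with array medians of 101.5 to 117.4. Rpl10 was bright, at 13335 and 13223 in M176 Tregs and 11316 and 11039 in WT Tregs. Tpt1 measured 14110 and 13527 in M176 Tregs and 11948 and 11331 in WT Tregs. Whether such levels damped a host's difference was not tested.

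Rps3 measured 4099.9 and 4042 in M176 Tregs, 1966 and 2949 in M354 Tregs and 2479 and 2336 in WT Tregs and rose by 0.76 (adjusted p = 0.0147), less than Snord15a and Snord15b. Rpl27a (0.77, adjusted p = 0.00762) and Rpl23 (0.54, adjusted p = 0.00775) rose less than Snora3 and Snora21. Rps3a1 rose by 1.58 (adjusted p = 1.13e-05), more than Snord73b at 1.40. Rpsa (1.06, adjusted p = 0.000342) rose while Snora62 at 0.59 did not pass. Tcp1, a chaperonin subunit gene, rose by 0.85 (adjusted p = 0.000975) and Nop56, itself a core protein of box C/D particles, by 0.46 (adjusted p = 0.0236), while Snora20 and Snord57 were not called. Srcap, a chromatin remodeller gene, was lower by the test at -1.03 (adjusted p = 0.000294), and Snora30 inside it was at -0.29 and not called. Rpl4 (0.28, adjusted p = 0.169), Wdr43 (0.18, adjusted p = 0.366), Ipo7 (-0.02, adjusted p = 0.942) and Haus6 (-0.15, adjusted p = 0.591) were not called, and neither were the small RNAs in them.

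**Figure D5:**
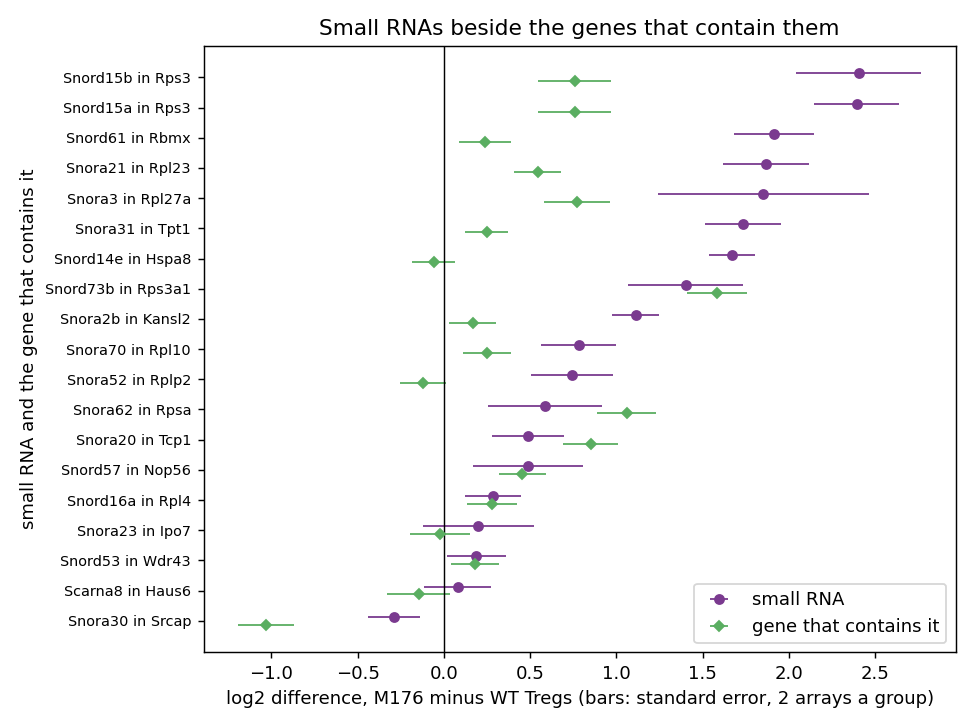
M176 minus WT Treg difference (log2, horizontal axis, bars are standard errors) for 19 small RNAs (circles) and for the gene that contains each (diamonds). The circle lies right of the diamond in 16 of 19 rows, furthest for Snord14e in Hspa8.

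By kind of host, 11 of the 15 snoRNAs in ribosomal protein genes were called higher in M176 Tregs (median 1.40), 6 of the 10 small RNAs in non-coding genes (median 1.65) and 4 of the 11 in other coding genes (median 0.49). Snora2b and Snord61 are 2 of those 4, and without them 2 of 9 were called (median 0.20). The share over all genes tested was 13.4%, and no test of these classes was made. Pairs that share a host did not always move alike. Snord33 and Snord35a, both in Rpl13a, differed by 0.52 and 1.69 from WT, while Snord15a and Snord15b in Rps3, and Snora73a and Snora73b in Snhg3, differed by 2.39 and 2.40, and by 2.15 and 2.0. Among others, the hosts Snhg1, Snhg3, Snhg4, Snhg10, Snhg12 and Rpl13a had no probe set naming 1 gene and are not analysed here.

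Genes for proteins of the snoRNA particles were examined next. Of 9 tested genes for box C/D core proteins and their assembly, 6 rose and 0 fell in M176 against WT Tregs (median 0.45, 3 rises and 1 fall with quantile normalization). Pih1d1, a subunit of the assembly chaperone R2TP, measured 333 and 326 in M176 Tregs, 186 and 174 in M354 Tregs and 167 and 176.4 in WT Tregs and rose by 0.94 (adjusted p = 5.56e-05), as did its partners Ruvbl1 (0.66, adjusted p = 0.00417) and Rpap3 (0.58, adjusted p = 0.0442). Nop56 rose by 0.46. Among 5 box H/ACA genes only Nop10, a small core protein, rose (1.13, adjusted p = 0.000377), with 1422 and 1194 in M176 Tregs, 494 and 749 in M354 Tregs and 578 and 611 in WT Tregs, and the list median was -0.02. Of 9 Cajal body and transport genes Phax, the RNA export adaptor (0.47, adjusted p = 0.0177), and Gemin7 (0.41, adjusted p = 0.032) rose. Of 23 decay genes 3 rose and 1 fell (median 0.01), and the share that rose was near the background. The genes for exosome subunits Exosc3, Exosc4 and Exosc9 rose by 0.75, 0.73 and 0.53, and Smg1 fell by 0.56. That background was 13.4% of all genes tested called higher and 11.3% called lower in M176 against WT Tregs.

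Among ribosome production genes more were called higher than lower. Of 39 genes of RNA polymerase I and rRNA processing 10 rose and 1 fell (median 0.27). Polr1c and Polr1d, subunits shared by RNA polymerases I and III, rose by 0.84 (adjusted p = 0.000782) and 0.84 (adjusted p = 0.00205), and the large-subunit assembly gene Wdr12 by 0.74 (adjusted p = 0.0131), while Taf1a, of a polymerase I initiation factor, was lower at -0.65 (adjusted p = 0.00249). Of 55 cytosolic ribosomal protein genes 38 rose and 0 fell (median 0.71), and 29 rose with quantile normalization. Rps21 measured 1867 and 2122 in M176 Tregs, 269 and 429 in M354 Tregs and 371 and 328 in WT Tregs, a rise of 2.51, and Rpl24, Rps29 and Rps28 rose by 2.33, 2.21 and 2.02. Among 4 tested non-coding snoRNA hosts Snhg5 (0.95, adjusted p = 0.000167) and Snhg17 (0.93, adjusted p = 0.0306) rose. The lists overlap with the hosts above, and no list was tested as a set. Over all genes 13.4% were called higher and 11.3% lower, a split of 1196 to 1010 that became 1124 to 1448 with quantile normalization.

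Other small RNAs differed by class. In M176 against WT Tregs 13.4% of all genes tested were called higher and 11.3% lower. Of 7 small RNAs that are neither snoRNAs nor microRNAs, 4 rose in that comparison and 0 fell, with 3 rises under quantile normalization. Terc, the telomerase RNA, which carries a box H/ACA end, measured 6285 and 7110.4 in M176 Tregs, 2637 and 2687 in M354 Tregs and 3121 and 2635 in WT Tregs (log2 1.22, SE 0.19, adjusted p = 0.000209). Its M176 difference was also larger in Tregs than in transduced cells (log2 1.29, SE 0.26, adjusted p = 0.00852). Vaultrc5, the vault RNA, measured 584 and 364 in M176 Tregs, 78.0 and 73.9 in M354 Tregs and 102 and 109 in WT Tregs (log2 2.13, SE 0.63, adjusted p = 0.0212). Rny1, a Ro-associated RNA, rose by 1.66 (adjusted p = 0.023), and Rmrp, the RNA of the RNase MRP enzyme of rRNA processing, by 0.87 (adjusted p = 0.0214). Rnu12, at 1.70, did not pass (adjusted p = 0.264), with its wide transduced pairs in the same fit. Rn7sk, which regulates transcription elongation, differed by 0.14 (adjusted p = 0.419). Of 71 microRNA genes 2 rose and 20 fell (median -0.29). Mir505 measured 420.0 and 637 in M176 Tregs, 2294 and 1512 in M354 Tregs and 1523 and 1866 in WT Tregs (log2 -1.71, adjusted p = 0.000229) and Mir155 51.0 and 71.3 in M176 Tregs, 146 and 141 in M354 Tregs and 116 and 117 in WT Tregs (log2 -0.94), while Mir15b rose by 2.10 (adjusted p = 1.55e-05).

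Stress and handling genes moved with the small RNAs in M176 Tregs. Of 20 tested, 9 rose and 0 fell against WT, with 8 rises and 1 fall under quantile normalization. The shares over all genes tested were 13.4% called higher and 11.3% lower, for this and the lists below. Hspa1a, the inducible heat shock chaperone, measured 984 and 1135 in M176 Tregs, 138 and 129 in M354 Tregs and 152 and 141 in WT Tregs (log2 2.85, SE 0.13, adjusted p = 5.44e-10), and the immediate early gene Fos 584 and 593 in M176 Tregs, 131 and 129 in M354 Tregs and 196 and 184 in WT Tregs (log2 1.63, SE 0.13, adjusted p = 6.63e-07). The mean log2 level of the list was 9.63 and 9.59 in M176 Tregs, 8.86 and 8.97 in M354 Tregs and 9.16 and 9.100 in WT Tregs. In the same arrays 7 of 10 Treg markers fell in M176 against WT and 0 rose (median -0.48), their sums being 29803 and 28979 in M176 Tregs, 34860.5 and 36297 in M354 Tregs and 41421 and 38625 in WT Tregs. Of 8 B cell markers 3 fell and 0 rose, and these 3 were each higher on WT Treg replicate 2 than on replicate 1. Cd74 measured 386 and 362 in M176 Tregs and 536 and 1067 in WT Tregs. Cd22 measured 68.7 and 71.9 in M176 Tregs and 86.4 and 137 in WT Tregs. Pax5 measured 78.1 and 74.4 in M176 Tregs and 86.7 and 127.8 in WT Tregs. Of 21 histone genes 6 rose and 1 fell, led by H2bc4 (1.87, adjusted p = 2e-05). The part of handling, of cell mixture or of growth state in the small RNA result was not tested.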

How the data were processed

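RNA was extracted with TriZol and amplified with the Ambion WT Expression Kit before labelling, per the labels' protocols. The values the authors deposited are intensities on a linear scale, made with Affymetrix Power Tools and RMA per the submitters' processing notes. RMA in its usual form subtracts background, normalizes between arrays and summarises each probe set. Since the deposited arrays still differed in median, other scalings were tried on top of the deposited values. For genome build and library version, the sources used here give nothing. Arrays have no sequencing depth, and precision is limited by having 2 arrays in each group.

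The table held 20716 probe sets, of which 17703 carried 1 gene symbol, 1246 several and 1767 none in the annotation supplied. The brightest probe set by mean stood for each of 16426 genes. A gene was tested if above the array median (percentile 50) on at least 2 of 12 arrays. The log2 of each intensity entered limma 3.58.1 (R 4.3.3), with 1 mean per group and all 12 arrays, which left 6 residual degrees of freedom and a prior of 10.9. Adjusted p are limma's with Benjamini-Hochberg adjustment over 8918 genes, and a call is a value under 0.05. The fit was tested on simulated data. Per-array values are linear intensities, and a difference is between log2 group means, given with its SE (standard error).

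In all, 9 comparisons were made: each mutant against WT and M176 against M354 in both kinds of cell, the difference between both kinds in the effect of each mutant, and WT Tregs against WT-transduced cells. Full values were given for the 12 largest M176 changes in Tregs, members called in another comparison, the brightest, the dimmest and the scaRNAs, and values of other members were added. From each gene list up to 4 called genes were named, and Rnu12 and Rn7sk were named after their values were seen. The members and lists were chosen with earlier results of these data known. A host is the shortest gene that contains the small RNA in the RefSeq table (GRCm38.p6). Hosts served for names, for the comparison with their small RNAs and for the counts by kind of host. Strand was planned as a condition, but the table gives none, so a gene on the other strand can have been counted as a host. Snord8 lay in both Gm26590 and Chd8, and by this rule it was counted in the non-coding Gm26590. A planned search for the C box in promoter entries of the snoRNAs could not be run, since 0 such entries matched. The run of pyrimidines was added after the sequences were seen. Probe sets naming several genes were left out of the tests. Replicate numbers were not taken as pairs.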

Additional observations from a re-analysis of the deposited data

Results flagged for a closer look

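For 9 small RNAs the M176 minus WT difference was not the same in Tregs as in transduced T cells by the test of that difference. The share of all genes tested that was called in the same direction was 4.03%. On the log2 scale it was larger in Tregs by 1.918 for Snord22, 1.809 for Snord15b, 1.723 for Snora21, 1.687 for Snord15a, 1.583 for Snord14e, 1.579 for Snora31, and 0.856 for Snord55, which are 7 of 34 small RNAs. Snord15b lost this call in 13 of 20 settings, Snord55 in 7, Snora21 in 2, and Snora31 and Snord15a in 1 each. The difference was also larger in Tregs by 2.145 for Snord61 and 0.793 for Snora2b, which passed the filter only through the M176 Treg arrays. In transduced cells the M176 differences were 0.45 for Snord22, 0.60 for Snord15b, 0.14 for Snora21, 0.71 for Snord15a, 0.09 for Snord14e, 0.15 for Snora31, -0.05 for Snord55, -0.23 for Snord61 and 0.32 for Snora2b.

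Probe sets whose annotation lists several genes were left out of the tests, and 16 of them list a snoRNA. In 10 of the 16 both M176 Treg arrays were above both WT Treg arrays and the mean was at least 2-fold higher, as in 2.58% of all 20716 probe sets. These 10 carry 6 different annotations. The set listing Mir1291 and Snora34 measured 1446 and 1375 in M176 Tregs, 93.1 and 152 in M354 Tregs and 136 and 143 in WT Tregs, a log2 difference of 3.337 between M176 and WT. The set listing Snora24 and its host Snhg8 measured 928 and 1205 in M176 Tregs, 53.4 and 119 in M354 Tregs and 106 and 126 in WT Tregs, a difference of 3.191. Snord68 with Rpl13 differed by 1.667, Snora28 with Eif5 by 1.34, and 2 sets listing Snord14d and Snord14c with Hspa8 by 1.205 and 1.207. These sets were not fitted, so the differences have no test.

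The other 4 sets list Snord116l2, Snord116l1 and Gm26504 and differed by 2.954, 3.0, 2.756 and 2.931 between M176 and WT Tregs. They were higher in M354 than in WT Tregs too, by 3.035, 3.064, 2.942 and 2.973. The first measured 164 and 409 in M176 Tregs, 256 and 295 in M354 Tregs and 21.4 and 52.5 in WT Tregs, and in transduced cells 41.3 and 111 with M176, 73.1 and 174 with M354 and 86.9 and 17.8 with WT. The 4 sets name the same genes and are not independent. No group here had enough arrays for a search for outlying arrays.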

How the results depend on the processing

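The M176 against WT Treg result kept its direction in all 21 alternatives. The calls among the 36 ranged from 18 to 22 with an array left out (over all genes, 570 to 1279 higher and 347 to 1106 lower, both lowest without M176 Treg replicate 1, against 1196 and 1010), and the median difference from 0.969 to 1.299. The median was 1.029 with quantile normalization and 1.446 with the filter at percentile 75, which drops dimmer members. A trend and robust prior left 15 calls, with 1206 of all 8918 genes called higher. A fit on the Treg arrays alone, added after the data were seen, gave 27, with 1270 of all genes called higher. Snora2b and Snord61 are in both counts. M176 against M354 Tregs gave 17 to 27 calls and medians of 1.198 to 1.326 with an array left out, a median of 1.278 with quantile normalization, where Snora30 was called lower, and 1.79 with the filter at percentile 75. The calls over all genes there were 1442 higher and 1584 lower with quantile normalization and 1420 and 1459 with cyclic loess, against 1618 and 1129. Leaving out M354 Treg replicate 1 gave 764 and 591, and leaving out M176 Treg replicate 1 gave 804 and 539. M354 against WT Tregs gave 0 calls throughout, with medians of -0.184 to -0.041, and over all genes 143 higher and 82 lower with cyclic loess, against 79 and 82. In transduced cells the medians ranged from -0.038 to 0.584 (M176 against WT, 0 calls), -0.143 to 0.713 (M354 against WT, 0 to 4 calls) and -0.517 to 0.393 (M176 against M354, 0 calls) with an array left out, so no direction is given there. The M176 difference between both kinds of cell gave 4 to 15 calls and medians of 0.552 to 1.28, and 1.34 with the filter at percentile 75. Over all genes it had 322 higher and 221 lower with quantile normalization, against 359 and 131, and 114 to 449 higher with an array left out, lowest when M176 Treg replicate 1 was dropped. That of M354 gave 0 to 1 calls and medians of -0.829 to 0.08. WT Tregs against WT-transduced cells gave 7 to 14 calls and medians of -0.278 to 0.329, and 9 calls with quantile normalization. Among uncalled members, Scarna8 ranged from -0.179 (without M176 Treg replicate 2) to 0.341 and Snord85 from -0.246 to 0.127 (without M176 Treg replicate 1), with 0.048 without WT Treg replicate 2. The cause was not tested. The labels number the arrays alike in all groups, and the difference between replicates 1 and 2 correlated between groups at -0.55 to 0.25. The lowest were -0.55 (M354-transduced with WT-transduced cells), -0.43 (WT Tregs with WT-transduced cells) and -0.33 (M176-transduced with M354-transduced cells). Whether arrays of the same or of different numbers were processed together was not tested. With the replicate block the calls were 21, 24, 8 and 13 in the Treg comparisons of M176 with WT and with M354, the difference between both kinds of cell and the WT comparison, against 21, 24, 9 and 14. Over all genes the block gave 1119, 1500, 292 and 875 called higher in that order, against 1196, 1618, 359 and 968. In the WT comparison 1615 were called lower, against 1728. With the M354-transduced numbers crossed, added after the data were seen, M354 against WT in transduced cells gave 2 calls. Over all genes 116 were called either way there. Over single members of M176 against WT Tregs, 701 of 747 refitted values kept direction and side of the threshold, 26 lost the call, 17 gained one and 3 reversed.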

Other observations

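The 3 small RNAs below the filter stayed below the median of every array. Snord38a measured 50.6 and 41.9 in M176 Tregs, 16.2 and 25.3 in M354 Tregs and 22.7 and 19.5 in WT Tregs. Snord58b measured 60.1 and 49.3 in M176 Tregs, 16.4 and 19.8 in M354 Tregs and 21.9 and 34.9 in WT Tregs. Snord73a measured 68.2 and 65.8 in M176 Tregs, 50.6 and 58.6 in M354 Tregs and 47.5 and 59.9 in WT Tregs. Each lay below the median of its array on all 12 arrays, and none was tested.

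Which array was highest differed between the 36. M176 Treg replicates 1 and 2 were the highest of the 12 arrays for 10 and 13 small RNAs, M354-transduced replicate 1 for 6 and M176-transduced replicate 2 for 4. WT-transduced replicate 1 was the lowest for 12 and M354 Treg replicate 1 for 9.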
